A study of Arabidopsis thaliana with 6 samples.

Results

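Small RNAs were sequenced from 2 genotypes of Arabidopsis thaliana, ein2-1 and the wild type Col-0, with 3 libraries each that the design text calls biological replicates. The ein2-1 allele lies in EIN2, a membrane protein through which the ethylene signal reaches the nucleus, and plants that carry it do not respond to ethylene. Every library, Col-0 included, came from the upper part of leaf explants of 14-day-old seedlings that had been under water for 1 hour and whose explants had then spent 7 days on callus-inducing medium, so the comparison is between genotypes and no unsubmerged or freshly cut tissue was analysed here. No other allele or agent is named in the labels, and no mRNA was measured, so the genotype could not be checked on EIN2 itself. The members described here were found in the deposited sheet of predicted miRNA targets: they are the genes whose description mentions ethylene or aminocyclopropane (and not auxin), together with the small RNAs that have a predicted site in them. The rule found 62 of 23944 rows, which hold 19 of 7800 target genes and 33 of 178 miRNA entries. Entries with the same counts in all 6 libraries carry the same mature sequence and were counted once, which left 24 of 142 distinct sequences with 36 distinct sites. The label holds for 16 of the 19 genes. The other 3 genes, MTHFR1, MTHFR2 and ERD5, were found because the word methylenetetrahydrofolate holds the string ethylene. They act in folate and proline metabolism, and without them 21 sequences with 33 sites were left.

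Ethylene is a gaseous hormone that builds up in plants under water. It is made from S-adenosylmethionine by ACC synthases, which form the precursor ACC (aminocyclopropane carboxylic acid) and are usually taken as the rate-limiting enzymes, and by ACC oxidases, which turn ACC into ethylene. Receptors of the ETR and ERS kind keep the kinase CTR1 active when no ethylene is bound, CTR1 holds back EIN2, and EIN2 acts through EIN3 and its relatives on ERF transcription factors. Plant miRNAs pair with their targets over nearly their whole length, inside coding sequence as well as in UTRs, and direct cleavage of the mRNA or block its translation. All sites below are predictions by psRNATarget, whose expectation is a penalty score for imperfect pairing: lower is better, and the sheet holds none above 5. Not every unpaired base adds to it, so a closer site below means a lower expectation and need not have fewer unpaired bases.

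The small RNAs with a site of expectation 3 or less in an ACC synthase gene are shown by their mature sequences, since these tell how they are related. miR319a/b, with a site at 4.0, is shown beside its relative miR319c. Capitals mark the seed, bases 2 to 8. A number after "unannotated" is the authors' entry number of a sequence that lies at no annotated MIR gene on its own strand.
miR159a: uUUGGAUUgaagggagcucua
miR159b-3p: uUUGGAUUgaagggagcucuu
miR319c: uUUGGACUgaagggagcuccu
miR319a/b: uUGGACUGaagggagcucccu
unannotated 201: aAAACAAAcccugaacuaaaaccu
unannotated 104: uCGGAUCCuggauaacauguuuaa
miR843: uUUAGGUCgagcuucauugga
miR159a and miR159b-3p share their seed and differ by A21U, with positions counted from the 5′ end of the first-named miRNA. miR319c differs from miR159a by U7C, U20C and A21U, of which U7C lies in the seed. miR319a/b is the same stretch as miR319c moved by 1 base, with 1 further difference, U21C in the count of miR319c. No other pair of the 24 sequences shared a seed.

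The site that miR159 and miR319 share lies in the coding sequence of ACS8, an ACC synthase gene on the plus strand of chromosome 4, and its counterpart lies at the same distance from the start of the coding sequence in ACS4, on the minus strand of chromosome 2. The sites are printed as mRNA from 5′ to 3′, so that the last base faces base 1 of the miRNA. Capitals mark bases not in a Watson-Crick pair with it, either mismatched or in a G:U pair.
ACS8 facing miR159a: uCgagUuUcUuucaauccaaa
ACS8 facing miR319c: UCgagUuUcUuucaAuccaaa
ACS4 facing miR159a: uCgagUuUcUuuUGauUcaaa
The ACS8 site of miR159a is chr4:17752740-17752760 and the ACS4 site chr2:9718969-9718989 (TAIR10.1). Against miR159a, the ACS8 site had 1 mismatch, at position 20, and 3 G:U pairs. The ACS4 site had the same mismatch and 6 G:U pairs. Against miR319c, the ACS8 site had 3 mismatches, of which that at position 7 is the U7C base in the seed.

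The windows that unannotated 201 faces in 6 ACC synthase genes were nearly the same sequence, and are shown because this small RNA reaches more of the genes than any other of the 24.
ACS8: CCgGGuuGguuUaggguuuguuuu
ACS9: CCgGGuuGguuUaggguuuguuuC
ACS5: CCgGGuuGguuUaggguuuguuuC
ACS7: GUCGGAuGguuUaggguuuguuuu
ACS4: CCgGGuuGguuUagAguuuguuuC
ACS11: CCUGGuuGguuUagAguuuguuuC
Of 24 bases, 23 in ACS9, 22 in ACS4, 21 in ACS11 and 20 in ACS7 were those of ACS8. ACS5 is outside the members, since its description reads ACC synthase. Its window is that of ACS9. The ACS8 window lies at chr4:17753719-17753742 in the coding sequence.

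Over the 36 sites, the expectation had a median of 3.5 and ran from 1.0 to 5.0. Over all 10351 distinct sites of the sheet the median was 4.0. Of the 36 sites, 16 (44.44%) had an expectation of 3 or less, against 14.91% of all sites. The share was 48.48% without the 3 folate and proline genes. The sites are not independent, because paralogous ACC synthase genes share windows and related miRNAs share sites, and no test was made. Cleavage was the predicted mode of 30 sites (83.33%), against 82.54% of all sites. The 6 translation sites had a mismatch at position 10 or 11, and 0 of the 30 cleavage sites had one. At these sites the predicted mode thus held no information beyond that mismatch, and it is not a separate result. Of the 36 sites, 31 lay in coding sequence and 5 in 3′ UTRs.

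**Figure D1:**
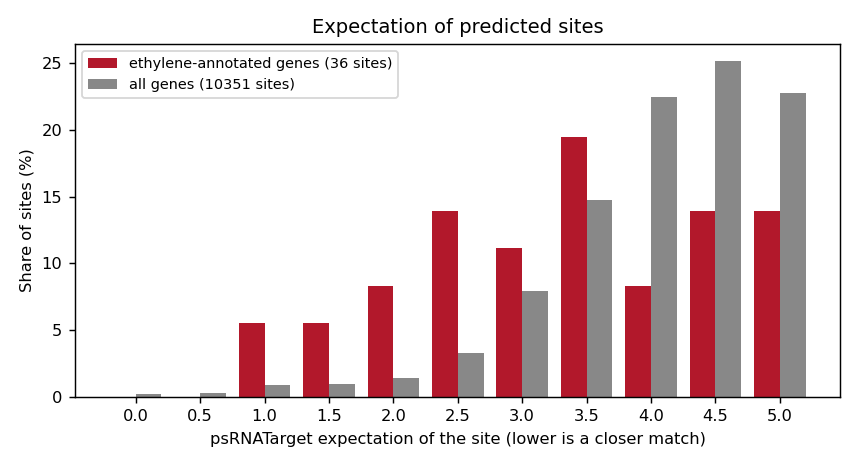
Share of predicted sites (vertical axis, %) at each psRNATarget expectation (horizontal axis, lower is a closer match) for the 36 sites in genes found by the rule and for all 10351 sites. Expectations of 3 or less hold 44.44% of the sites in genes found by the rule and 14.91% of all sites.

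ACC synthases held most of the close sites. The 6 genes ACS4, ACS6, ACS7, ACS8, ACS9 and ACS11 had 19 of the 36 sites, held by 11 sequences, with a median expectation of 3.0, and 12 of the 16 sites at 3 or less were in them. ACS4 had 7 sites and ACS8 had 6. ACS8 was the best-scoring target in the whole sheet of 3 sequences. For unannotated 201 it had an expectation of 1.0, and for miR159a and miR159b-3p 1.5, and each time it was the only site at that score. The site of unannotated 201 had 4 mismatches, at positions 20, 21, 23 and 24, and 2 G:U pairs. It scored below the miR159a site, which had 1 mismatch, at position 20, and 3 G:U pairs. The 2 miR159 sequences are best known for limiting MYB factors of the GAMYB kind, and miR319 for limiting TCP factors of leaf growth. For miR319c the ACS8 site had an expectation of 3 and for miR319a/b 4, and 5 and 26 other sites scored better.

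Unannotated 201 had sites in 5 of the 6 ACC synthase genes, at 1.0 in ACS8, 2.0 in ACS7 and ACS9 and 3.5 in ACS4 and ACS11. The sites in ACS4 and ACS11 were predicted to act on translation, and both have a mismatch at position 10 that the cleavage sites lack. The gene outside the rule, ACS5, had an expectation of 2.0. Unannotated 104 had sites across an exon junction in ACS7 (2.0), ACS4 (2.5) and ACS8 (2.5). Both sequences are 24 nt long, the usual length of small RNAs that guide DNA methylation, and matched the genome at 20 and 17 places, so the reads cannot be given to 1 locus. miR843 had a site in ACS4 (2.5), as did miR172a/b-3p (3.5), which is best known for AP2-like targets, and miR1886.2 (5.0). The remaining sites were that of unannotated 64 in ACS7 (3.5) and that of unannotated 176 in the 3′ UTR of ACS6 (4.5).

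**Figure D2:**
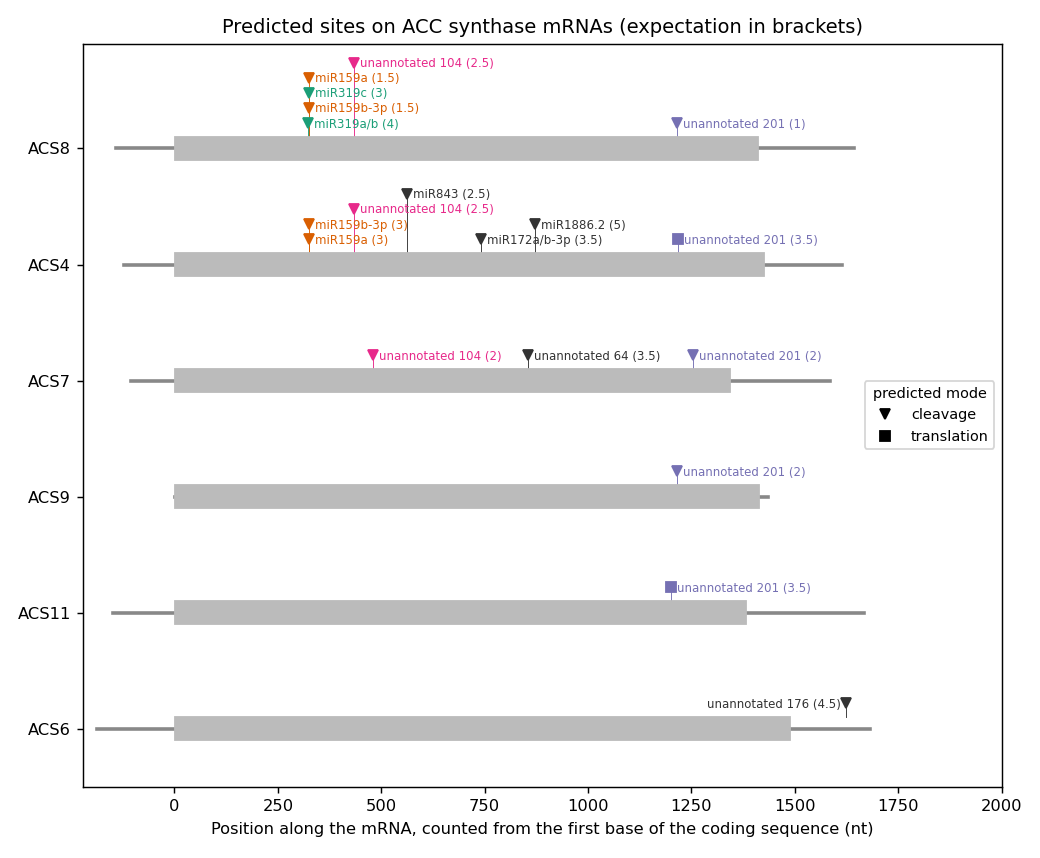
Predicted sites on the mRNAs of the 6 ACC synthase genes found by the rule, with the position counted from the first base of the coding sequence (horizontal axis, nt), coding sequence as a grey box and UTRs as lines. Triangles are cleavage sites, squares translation sites, and the expectation stands in brackets; the miR159 sites of ACS8 and ACS4 line up, as do those of unannotated 201 near the end of the coding sequence.

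Levels were compared on raw counts, one value per distinct sequence, with edgeR's quasi-likelihood test after TMM scaling, which sets the libraries to a common level from the bulk of the sequences. Fold changes are ein2-1 over Col-0, and a sequence was called at a Benjamini-Hochberg adjusted p below 0.05 over all 120 sequences tested. Totals were 606476 to 987089 counts in ein2-1 and 333025 to 556692 in Col-0. These totals are sums over the listed sequences, and the full depth of the libraries is not known here. Of the 24 sequences, 18 passed edgeR's default filter on low counts and were tested. With no filter, 0 of the other 6 passed (log2 fold changes -1.59 to 0.42, edgeR adjusted p 0.0733 to 0.982). Of the 18 tested, 4 rose, where 20.8% of all tested sequences did, 8 fell, where 31.7% did, and 6 did not pass. The 12 called are set against 52.5% of all tested sequences called in either direction, and the difference from that background was not tested. Calls of rises depended on the scaling: with RLE size factors 7 members rose and 8 fell (32.5% of all tested in each direction), and with all 178 entries 9 of 17 tested members rose and 8 fell (34.7% and 32.2% of all tested). Without Col-0 replicate 1, 9 members rose and 8 fell, and over all sequences the rises were 50 where they were 25 with every library. The median log2 fold change of the 18 tested members was 0.32, against -0.15 over all tested sequences. The members' median was -0.073 without ein2-1 replicate 1, -0.018 under library-size scaling and 0.77 without Col-0 replicate 1, so its sign was not settled. In scaled level, 6 members had every ein2-1 library above every Col-0 library and 8 had every one below, 14 in all. Of all tested sequences, 25.8% and 33.3% did so, 59.2% in all. In bulk tissue, fewer cells that make a miRNA and less of it per cell cannot be told apart.

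**Figure D3:**
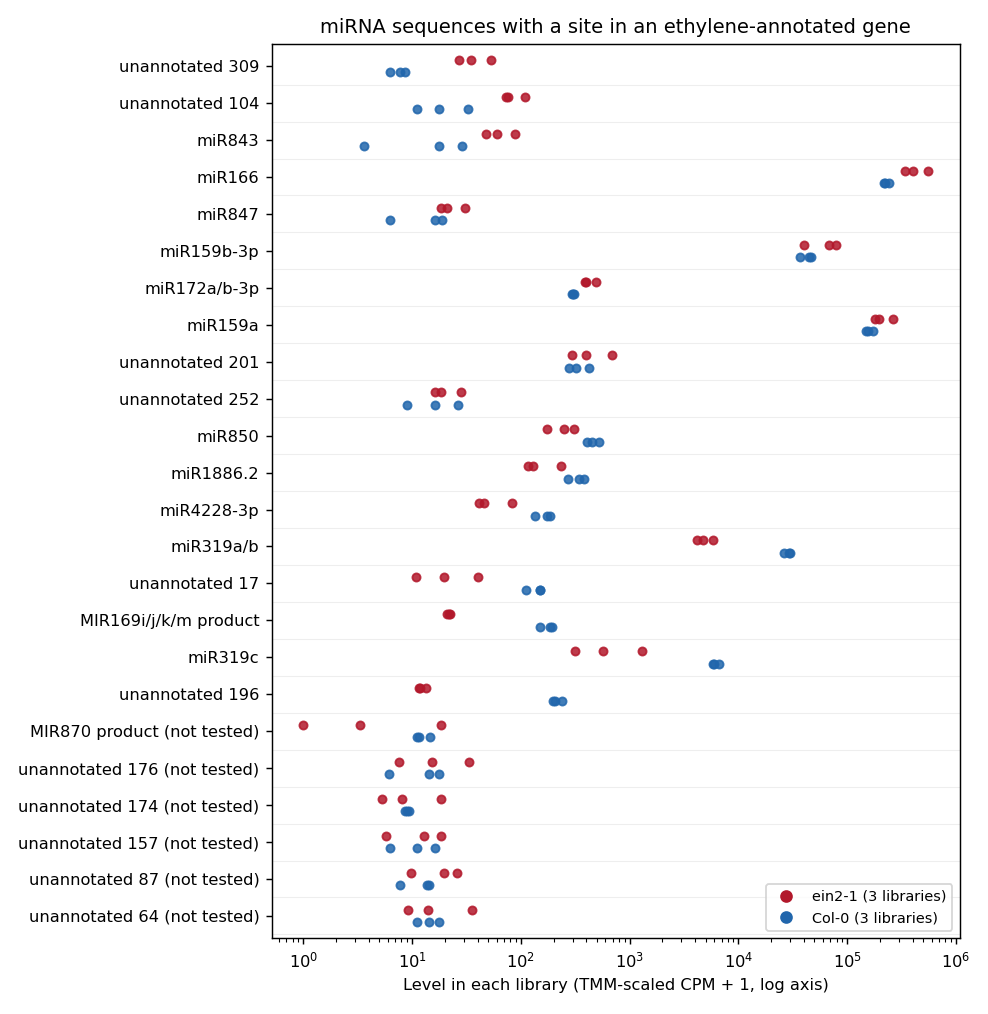
Level of each of the 24 sequences in each library (horizontal axis, TMM-scaled CPM + 1, log axis), ein2-1 above Col-0 within each row; rows run from the largest rise to the largest fall, with the 6 sequences that were not tested at the bottom. The red and blue points separate for miR319c, miR319a/b and unannotated 196, and overlap for miR159b-3p and unannotated 201.

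Among the 9 tested sequences with a site in an ACC synthase gene, unannotated 104 and miR843 rose, both miR319 sequences and miR1886.2 fell, and the 4 others did not pass, where 20.8% of all tested sequences rose and 31.7% fell. Unannotated 104 had 44, 69 and 61 counts in ein2-1 replicates 1 to 3, against 10, 12 and 4 in Col-0. Each ein2-1 library lay above each Col-0 library, and the log2 fold change was 2.10 (SE 0.38, edgeR adjusted p 1.68e-05). miR843 had 35, 43 and 50 counts in ein2-1, against 10, 1 and 11 in Col-0. Its genotypes did not overlap either, and the log2 fold change came to 1.93 (SE 0.43, edgeR adjusted p 0.000257). Col-0 replicate 2, with 1 count, was the lowest library of this small RNA, and without it the rise was still called.

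The miR319 sequences were the members with sites in ACC synthase genes that changed most. miR319c had 520, 527 and 266 counts in ein2-1, against 3558, 2508 and 2283 in Col-0. miR319a/b had 2373, 3796 and 4040 counts in ein2-1, against 17338, 11132 and 10308 in Col-0. All ein2-1 libraries were below all Col-0 libraries in both, although ein2-1 totals were the higher ones. The log2 fold change was -3.10 for miR319c (SE 0.38, edgeR adjusted p 2.15e-08) and -2.53 for miR319a/b (SE 0.30, edgeR adjusted p 1.37e-08). miR1886.2 had 94, 119 and 99 counts in ein2-1, against 159, 128 and 150 in Col-0, and the scaled libraries did not overlap. Its log2 fold change was -1.08 (SE 0.29, edgeR adjusted p 0.00216), and the call was lost without Col-0 replicate 3 (-0.77, edgeR adjusted p 0.0695).

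miR159 was among the most abundant small RNAs in the table and its change was not resolved. miR159a had 105723, 179463 and 153709 counts in ein2-1, against 91545, 65251 and 58187 in Col-0. Scaled, these were 261722, 195094 and 180933 CPM in ein2-1, against 154577, 173253 and 148334 CPM in Col-0 (counts set to the same scaled total in every library), so the genotypes did not overlap but lay near each other. The log2 fold change was 0.42 (95% interval -0.14 to 0.99, edgeR adjusted p 0.2). miR159b-3p, with 32216, 63275 and 34309 counts in ein2-1 against 27603, 16702 and 14328 in Col-0, overlapped between the genotypes once scaled. Its log2 fold change was 0.57 (95% interval -0.04 to 1.17, edgeR adjusted p 0.108). Both were positive under each of 15 alternative settings, and both passed under RLE scaling (0.48 and 0.62, edgeR adjusted p 0.000809 and 0.000654). Without Col-0 replicate 1 they were 0.82 and 1.04 and passed (edgeR adjusted p 6.43e-05 and 5.12e-05), and miR159b-3p passed without ein2-1 replicate 3 as well (0.48, edgeR adjusted p 0.0220). They were 0.081 and 0.20 under library-size scaling (edgeR adjusted p 0.497 and 0.195) and 0.16 and 0.27 without ein2-1 replicate 1 (edgeR adjusted p 0.443 and 0.306), and miR159a was 0.18 without ein2-1 replicate 3. In the authors' deposited table the log2 fold changes were 0.75 for miR159a (FDR 4.69e-07) and 0.87 for miR159b-3p (FDR 7.7e-06). Which entries the authors' fit rested on is not known here.

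The balance of the miRNAs that face the shared ACS8 window can be read within a library, with no scaling between libraries. Of the counts of the 4 sequences, miR319 made up 2.05%, 1.75% and 2.24% in ein2-1, against 14.9%, 14.3% and 14.8% in Col-0. These are 2.01% ± 0.247 in ein2-1 and 14.7% ± 0.346 in Col-0 (SD, n = 3 each), with no overlap. Per miR319 count there were 47.7, 56.2 and 43.7 miR159 counts in ein2-1, against 5.70, 6.01 and 5.76 in Col-0. The log2 of that ratio was 5.61 ± 0.18 in ein2-1 and 2.54 ± 0.04 in Col-0, a difference of 3.07 (exact permutation test, two-sided, p = 0.1, the smallest that 3 against 3 libraries allow). The 4 sequences together took 23.2%, 25.0% and 26.0% of all counts in ein2-1, against 25.2%, 28.7% and 25.3% in Col-0, and this share overlapped between the genotypes (exact permutation p = 0.4). miR159, whose sites there have the lower expectation, made up 98.0% ± 0.247 of these counts in ein2-1 and 85.3% ± 0.346 in Col-0 (SD, n = 3 each).

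**Figure D4:**
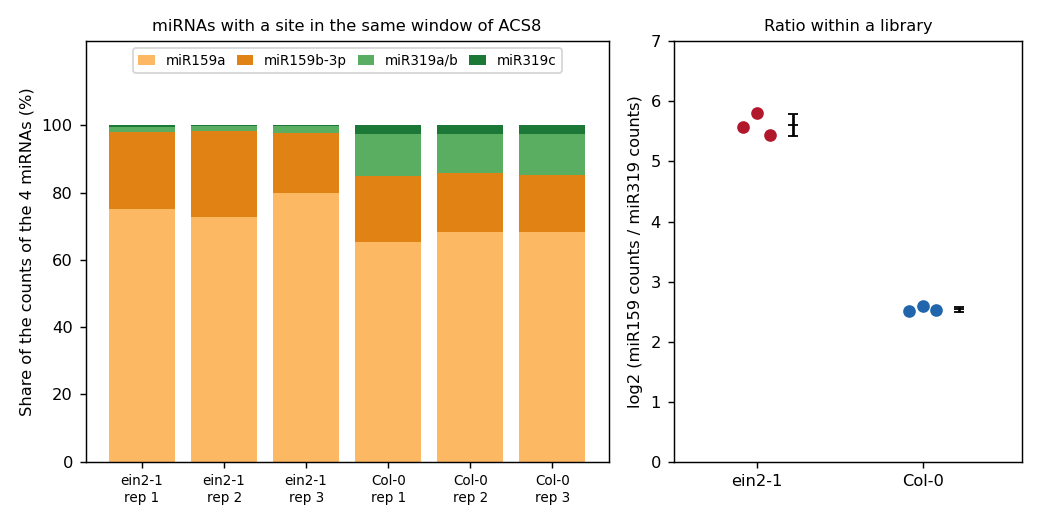
Left, share of the counts of the 4 miRNAs with a site in the shared ACS8 window (vertical axis, %) in each library; right, log2 of miR159 counts over miR319 counts per library (points), with the mean and SD (bars, n = 3 each). miR319 makes up 1.75% to 2.24% in ein2-1 and 14.3% to 14.9% in Col-0.

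Unannotated 201, with the site of lowest expectation in ACS8, had 276, 362 and 250 counts in ein2-1, against 249, 120 and 108 in Col-0. Scaled, the genotypes overlapped. Its log2 fold change was 0.42 (95% interval -0.21 to 1.04, edgeR adjusted p 0.246). ein2-1 replicate 1 set its sign: without that library the value was -0.073, without ein2-1 replicate 3 it was 0.27, and without Col-0 replicate 1 it was 0.98 and passed (edgeR adjusted p 0.00407). miR172a/b-3p had 199, 356 and 335 counts in ein2-1, against 177, 110 and 120 in Col-0, which did not overlap when scaled. Its log2 fold change of 0.50 did not pass (95% interval -0.05 to 1.06, edgeR adjusted p 0.116), and it passed under RLE scaling (0.59, edgeR adjusted p 0.0230) and without Col-0 replicate 1 (0.93, edgeR adjusted p 0.00539). The value was 0.19 under library-size scaling, 0.30 without ein2-1 replicate 1 and 0.22 without ein2-1 replicate 3. Unannotated 64 and 176 had 2 to 14 counts in every library and were left out by the filter.

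The ACC oxidase ACO4, listed in the reference as EFE, the ethylene-forming enzyme, had sites for unannotated 64 (2.5, coding sequence) and unannotated 87 (5.0, 3′ UTR). The ACO4 site was the closest one of unannotated 64 in the sheet, along with 3 other sites at the same score. Unannotated 64 had 14, 12 and 7 counts in ein2-1 and 10, 5 and 4 in Col-0, and unannotated 87 had 10, 8 and 16 in ein2-1 and 4, 5 and 5 in Col-0. The genotypes overlapped in raw counts for unannotated 64 and in scaled level for both, and the filter left both out.

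Of the receptor genes, ERS2 and EIN4 had a site each, as did RTE1, a membrane protein that acts with the receptor ETR1. The site of unannotated 174 in EIN4 is printed because it was the closest of the 3, with an expectation of 2.5, and it lies at chr3:1236070-1236093 in coding sequence.
unannotated 174: aUUGUCUGugugauuuaggagccu
EIN4 facing unannotated 174: UAUcAccuaaaucGcaUGgacaaA
Unannotated 174 had 7, 4 and 6 counts in ein2-1, against 5, 3 and 3 in Col-0. The product of MIR870, with a site in RTE1 (3.5), had 7, 0 and 2 counts in ein2-1, against 8, 4 and 4 in Col-0. The filter left both out, with -0.20 and -1.59 when no filter was used (edgeR adjusted p 0.835 and 0.0733), and a count of 0 in ein2-1 replicate 2 allows a share of up to 0.000304% of that library. miR847, which is known to target an auxin repressor and had a site in the 3′ UTR of ERS2 (4.0), had 12, 16 and 17 counts in ein2-1, against 9, 2 and 7 in Col-0. Its scaled libraries overlapped, and the log2 fold change was 0.69 (95% interval -0.26 to 1.64, edgeR adjusted p 0.213). It was 1.29 and passed without Col-0 replicate 1 (edgeR adjusted p 0.0395), and was 0.41 without ein2-1 replicate 1, 0.44 without ein2-1 replicate 3 and 1.11 without Col-0 replicate 3. In the authors' deposited table it was 1.05 (FDR 0.0204). No small RNA with a site in a receptor gene or RTE1 was called.

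The 6 remaining ethylene genes had 9 sites, of which 2 had an expectation of 3 or less. They are AT5G10120, a relative of EIN3, ERF1, a factor that switches on ethylene and defence genes, EBP, also known as RAP2.3 and one of the factors that are stabilised in low oxygen, AT5G07580, described as an ethylene-responsive factor, EICBP.B, a calmodulin-binding factor also known as CAMTA1, and AT4G20880, described as an ethylene-regulated nuclear protein. The largest rise and the largest fall among the tested members were found here. The mature sequences of these and of 2 further falls are given for that reason, with the closer site of unannotated 17.
unannotated 309: uAUAGGCAuuauuuuuuuuucu
unannotated 196: uAAUGGAUgaaaaaguaguauu
MIR169i/j/k/m product: gGCAGUCUccuuggcuauc
unannotated 17: gAUGAUGAugaugaugaauu
AT5G07580 facing unannotated 17: GaAucaucaucaucaucauc
Unannotated 17 is a simple repeat of 3 bases over most of its length and matched the genome at 8 places, and AT5G07580 held 2 of its 151 sites, at expectations of 1.0 and 3.0. The match of unannotated 309 lies in the chloroplast genome, and the matches of unannotated 196 lie opposite MIR447a and MIR447b on chromosome 4.

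Unannotated 309, with a translation site in EBP (4.0), had 21, 24 and 29 counts in ein2-1, against 4, 2 and 3 in Col-0. Every ein2-1 library was above every Col-0 library, and the log2 fold change was 2.39 (SE 0.49, edgeR adjusted p 9.18e-05). Unannotated 196, with a site in the 3′ UTR of EICBP.B (4.5), had 5, 10 and 9 counts in ein2-1, against 122, 89 and 77 in Col-0. It was 18.8-fold lower in ein2-1, and its log2 fold change was -4.23 (SE 0.34, edgeR adjusted p 1.39e-11). EICBP.B also had a site at 3.5 for miR159a and miR159b-3p, whose levels are given above.

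The product of MIR169i/j/k/m, 19 nt long, had a translation site in AT5G10120 at the limit of the sheet (5.0). It had 8, 19 and 18 counts in ein2-1, against 88, 70 and 76 in Col-0, with no overlap. The log2 fold change was -3.07 (SE 0.32, edgeR adjusted p 1.07e-09). Unannotated 17 had 16, 9 and 16 counts in ein2-1, against 65, 56 and 59 in Col-0, again with no overlap. The log2 change was -2.74 (SE 0.37, edgeR adjusted p 1.29e-07). Unannotated 252, with a site in AT4G20880 (4.5), had 11, 16 and 13 counts in ein2-1 and 9, 3 and 10 in Col-0, and its log2 fold change of 0.22 did not pass (95% interval -0.72 to 1.16, edgeR adjusted p 0.687). With a library left out it ran from 0.063 without Col-0 replicate 2 to 0.81 without Col-0 replicate 3. Unannotated 157, with a site in the 3′ UTR of ERF1 (5.0), had 2 to 11 counts in every library and was left out by the filter.

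**Figure D5:**
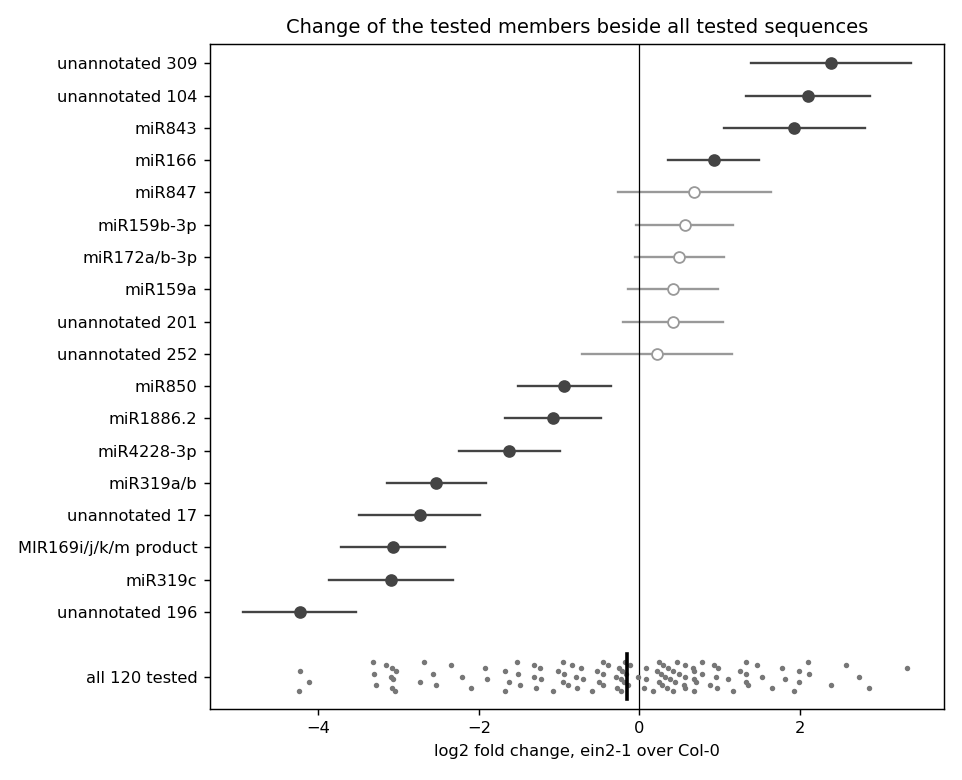
Change in level, as log2 of ein2-1 over Col-0 (horizontal axis), for the 18 tested sequences, with 95% intervals; filled points passed an edgeR adjusted p of 0.05 and open ones did not. The bottom row shows all 120 tested sequences, with the median of -0.15 as a bar; values of the 18 run from -4.23 for unannotated 196 to 2.39 for unannotated 309.

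The 3 genes found through the folate string had weak sites, at 4.5 in MTHFR1 for miR166 and in ERD5 for miR4228-3p, and at 5.0 in MTHFR2 for miR850. All 3 sequences were called, where 52.5% of all tested sequences were called in either direction. miR166, which limits HD-ZIP III factors and was the most abundant sequence, had 225799, 371415 and 286258 counts in ein2-1, against 144750, 83159 and 85103 in Col-0, with no overlap. The log2 fold change was 0.93 (SE 0.28, edgeR adjusted p 0.00524), and 0.62 without ein2-1 replicate 1. miR4228-3p, with 33, 41 and 34 counts in ein2-1 against 79, 65 and 73 in Col-0, had -1.62 (SE 0.31, edgeR adjusted p 3.63e-05), and its libraries did not overlap. miR850, with 124, 231 and 148 counts in ein2-1 against 242, 171 and 207 in Col-0, had -0.93 (SE 0.28, edgeR adjusted p 0.00565), and overlapped in raw counts but not when scaled. Its call was lost without Col-0 replicate 3 (-0.65, edgeR adjusted p 0.127), and its value was -0.62 without Col-0 replicate 1. Without these 3, the tested members were 15, with 3 rises, 6 falls and 6 that missed the threshold. Over all tested sequences 20.8% rose and 31.7% fell, and the difference from this background was not tested. miR166 also set the total level of the members: the 24 sequences took 60.6% to 64.9% of the counts in ein2-1, against 50.8% to 53.9% in Col-0. Without the 3 sequences the share was 23.4% to 26.1% in ein2-1 and 25.3% to 28.9% in Col-0, which overlapped.

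Ethylene genes whose description lacks the word were looked up by name in lists of the pathway. Of 14 genes of synthesis matched in the reference, 9 had a site, and the rule had found 7 of these. Of 6 genes of perception, 3 had a site, all found by the rule. Of 12 signalling genes matched by symbol 5 had a site, and the rule had found 0. EIL4 and EIL5 were listed but not matched by symbol. AT5G10120, the EIN3 relative that the rule found, is not counted among the 12, and whether it is EIL4 or EIL5 was not checked. Of 23 ERF genes tied to low oxygen, wounding or cytokinin 7 had a site and 2 were found. The 12 genes missed included EIN2, the mutated gene, with a site near the start of its coding sequence for miR167a-3p (4.5). miR167a-3p had 5709, 11765 and 6717 counts in ein2-1, against 18458, 9386 and 9987 in Col-0, which overlapped in raw counts. Scaled, it had 14133, 12790 and 7907 CPM in ein2-1, against 31167, 24922 and 25460 CPM in Col-0, with no overlap. The log2 fold change came to -1.23 (SE 0.30, edgeR adjusted p 0.000713).

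The other matched signalling genes with sites were regulators that hold the pathway back. CTR1 had a site for miR398b/c-3p (4.0), with 16043, 34648 and 12479 counts in ein2-1, against 3296, 2137 and 1656 in Col-0. The genotypes did not overlap, and the rise was 2.57 on the log2 scale (SE 0.34) at an edgeR adjusted p of 1.02e-07. ETO1 and EOL1 bind ACC synthase proteins for their breakdown. ETO1 had a translation site for miR391-3p (4.0), which rose by 1.34 (edgeR adjusted p 0.000213), with 83, 164 and 159 counts in ein2-1 against 31, 29 and 39 in Col-0. EOL1 had a site for unannotated 102 (5.0), which rose by 1.78 (edgeR adjusted p 4.49e-05), with 37, 65 and 87 counts in ein2-1 against 11, 12 and 11 in Col-0. EBF2, which leads EIN3 to breakdown, had a site for unannotated 64 in its 5′ UTR (3.0). Of the 5 sequences with sites in the matched signalling genes, 3 rose, 1 fell and 1 was not tested. The MIR169i/j/k/m product, which has a site in AT5G10120 and fell, is not among the 5. Over all tested sequences 20.8% rose and 31.7% fell, and a count over 5 sequences was not tested against this.

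Among the ERF genes missed, HRE1 had a site for miR838 (2.5) and RAP2.12 a translation site for miR396a-5p (3.0), and neither of these miRNAs passed, with log2 fold changes of -0.28 and -0.23 (edgeR adjusted p 0.546 and 0.503). CRF5 had a site for miR1886.2 (3.0), which fell as given above. WIND1, a factor that promotes callus at wounds, had a translation site for miR861-3p (4.0), which rose by 1.81 (edgeR adjusted p 9.75e-05), with 48, 117 and 47 counts in ein2-1 against 21, 5 and 13 in Col-0. PUCHI and ACS5 each had a site for unannotated 24 (5.0 and 4.0) and ACO5 had one for unannotated 79 (3.5). Unannotated 24 had a log2 fold change of 0.44 (edgeR adjusted p 0.236) and unannotated 79 of -0.19 (edgeR adjusted p 0.718), and neither passed.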

How the data were processed

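The submitters' processing notes name cutadapt as a tool and TAIR10 as the build. What aligned and counted the reads is not given in the sources used here. Sheets deposited by the authors hold raw counts per precursor entry, and, per the file headers, the authors' log2 fold change with a p-value and FDR, and the psRNATarget expectation, a score deposited for each predicted site. The authors' normalised values were not used, and 7 empty lines of the target sheet were not analysed here.

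Entries with identical counts in all libraries were entered once. The test was that of edgeR 4.0.16 (R 4.3.3; quasi-likelihood, two-sided, TMM, filterByExpr defaults, Benjamini-Hochberg over 120 sequences), with genotype as the only term; SEs and 95% intervals were derived from its statistic. TMM factors were 0.666 to 1.15 in ein2-1 and 1.06 to 1.16 in Col-0. Libraries of a genotype differed beyond counting noise in all pairs. The labels do not say how they were raised, so p-values measure the spread between these libraries. No molecular identifiers are named, so reads are not independent molecules, and limits for a count of 0 cover counting error only, at 3 counts. Sequences were placed by exact match on the RefSeq TAIR10.1 genome, where all 48 transcript sites checked were found as deposited. Tried instead were other scalings (RLE, library size), other tests (DESeq2 1.42.0, limma-voom with limma 3.58.1), other filters, all entries, a replicate block, totals without the most abundant sequence, each library left out, an adjusted p of 0.01 and stricter limits on sites. Python 3.11.15, pandas 2.3.3, scipy 1.17.1 and matplotlib 3.10.9 were used.

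Members, gene lists and tests were chosen with earlier results of these data known. Named genes were those with a site at 3.0 or less, those of synthesis, perception or signalling, and listed ERF genes. Named miRNAs were those with sites in such genes, those with most ethylene genes, and the largest changes and levels. Unannotated 252, miR850 and miR4228-3p were named outside the rule, to account for every member.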

Additional observations from a re-analysis of the deposited data

How the results depend on the processing

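Of the 12 called sequences, 10 kept direction and call under all 15 alternatives of scaling, test, filter, entries, block and left-out libraries. miR1886.2 and miR850 lost theirs without Col-0 replicate 3 (-0.77 and -0.65), and miR850 with totals without the most abundant sequence (-0.69). The number of members that rose was 4, and it was 7 under RLE scaling, 7 under DESeq2, 9 with all entries as deposited, and 4 to 9 with each library left out, the highest without Col-0 replicate 1. With sites of expectation 3 or less, 2 rose and 2 fell, with sites of 4 or less 3 fell, and with cleavage sites alone 2 rose. The 8 falls were 6 to 8 with each library left out. Over all sequences 25 rose and 38 fell, against 39 rises under RLE scaling and 41 with all entries. With each library left out, 22 to 50 rose and 31 to 46 fell. Rises were 39.7% of all calls, 50.0% under RLE scaling, 51.9% with all entries, 50.7% with totals without the most abundant sequence and 58.8% without Col-0 replicate 1. The median over all sequences moved by 0.20 with all entries, -0.30 under library-size scaling and 0.45 without Col-0 replicate 1. The sign changed for unannotated 201 without ein2-1 replicate 1 (-0.073; its range over left-out libraries reached 0.98) and for unannotated 252 under library-size scaling (-0.066), neither of which was called. The causes were not tested. The 19 genes became 12 and 7 with sites of 4 or less and of 3 or less, and the 36 sites became 16 with sites of 3 or less and 62 with entries and transcripts as deposited. Libraries with the same replicate number did not deviate together (correlations 0.168, -0.046 and 0.155). With the replicate block, 4 members rose and 8 fell, and 30 of all sequences rose and 39 fell. The 6 untested sequences had at most 16 counts in any library, and with no filter 0 of them passed, at log2 fold changes of -1.59 to 0.42.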
